A study of Rattus norvegicus with 8 samples.

Results

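A set of 6 genes that mark and equip myeloid cells, the phagocytes and their precursors, was followed in wounded and unwounded rat skin. They were Cd14 (ENSRNOG00000017819), Tlr2 (ENSRNOG00000009822), Tlr4 (ENSRNOG00000010522), Itgam (ENSRNOG00000019728), Cd68 (ENSRNOG00000037563) and Lyz2 (ENSRNOG00000005825). The members were chosen as every non-control spot whose printed name ends in 1 of these 6 Ensembl IDs, which gave 11 of the 38948 probes of the array and 6 of the 12769 features tested. A feature was an Ensembl ID represented by its brightest probe, or a probe without such an ID. The files name these probes only by Ensembl or manufacturer IDs. The gene symbols were set beside the IDs when the genes were chosen, and no table used here repeats that pairing.

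The wounded group was skin from the cut of Long-Evans rat pups that had received a 3-mm incision in the back 3 days after birth, taken 36 h after the incision. The control group was skin from the matching place on Long-Evans pups without an incision, whose age at sampling the labels do not state separately. Each group held 4 samples, each hybridised to its own array in 1 colour, and no sample of either group had another listed treatment. Nothing in the labels ties the samples to separate animals, so the p-values given here measure sample-to-sample spread, part of which may be technical. The study's title concerns wound healing and hair loss under chemotherapy, and these arrays address which transcripts differed between wounded and unwounded skin.

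Phagocytes recognise bacteria and damaged tissue through receptors on their surface. CD14 is a co-receptor that hands bacterial lipopolysaccharide to TLR4, and TLR2 responds to bacterial lipoproteins. Both Toll-like receptors signal to NF-κB and switch on cytokine and chemokine genes. ITGAM (CD11b) is the α chain of the integrin Mac-1, with which neutrophils and monocytes leave the blood and take up complement-coated particles. CD68 is a glycoprotein of the lysosomes of macrophages, and Lyz2 encodes lysozyme, an enzyme of phagocyte granules that cleaves bacterial cell walls. After a skin wound, neutrophils enter the tissue early and monocytes follow and become macrophages.

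The scanner software found between 16930 and 20030 probes per array, which is 43.5% to 51.4% of those printed. Controls averaged 18734 ± 1373 probes (SD, n = 4) and the wounded arrays 18750 ± 993 (SD, n = 4). None of the members' spots was marked bad, a count of 0 among the 65 bad spots of the 8 arrays. All 8 arrays were scanned in a single run, with the controls before the wounded samples, so scan order and group cannot be told apart. In whole skin, more cells of a type and more RNA per cell cannot be told apart either.

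All 6 genes were higher in wounded skin (limma, Benjamini-Hochberg adjusted p at most 0.05), beside 8.01% of the 12769 features called higher. Of the 6 genes, 5 were called at least 2-fold higher (3.2% of all features) and 4 at least 4-fold higher (1.07% of all features). Tlr2 and Itgam stood close to 4-fold: without wounded sample 1, at 3.46-fold and 3.91-fold, the second count was 2, and without control sample 1, with Tlr2 at 3.98-fold, it was 3. Without a filter on dim probes all 6 were called as well, Tlr4 narrowly (limma adjusted p = 0.0464). Tlr4 kept its call in 16 of the 22 alternatives that tested it, and the count was 5 where it lost it. The median log2 fold change was 2.08 over the 6 genes and -0.05 over all features. The 4 wounded values lay wholly above the 4 control values for 5 genes, which held for 8.77% of all features. The exception was Cd68. Of the 11 probes, 10 passed the filter of a spot found on at least 4 arrays. The second Tlr2 probe passed it through wounded arrays only, and the second Tlr4 probe did not pass. Signals are log2 intensities after background correction with an offset of 50 and quantile normalization, and the offset makes fold changes of dim probes smaller.

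**Figure D1:**
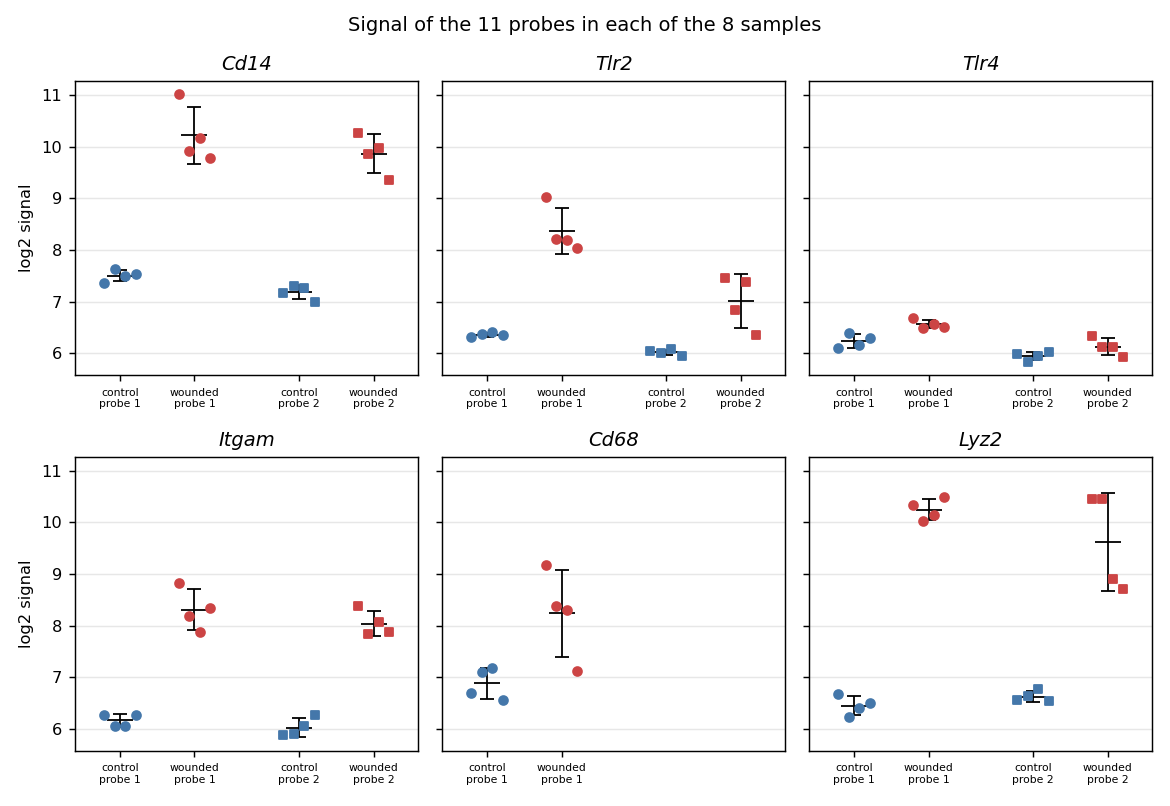
Log2 signal of each of the 11 probes in each sample, with 4 control samples in blue and 4 wounded samples in red. Circles are the brightest probe of a gene and squares its other probe, the bars show mean ± SD (n = 4), and Cd68 is the only gene whose brightest probe overlaps between the groups.

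The promoters of these genes were read because all 6 transcripts were called higher, though by amounts from 1.26-fold for Tlr4 to 13.8-fold for Lyz2. Windows of 300 bases, from 250 before to 50 after each gene's start, were taken by symbol from RefSeq on GRCr8 for all 6 genes. The motifs were the core GAGGAA bound by PU.1, the AP-1 site TGANTCA and the NF-κB consensus. PU.1 is the transcription factor needed for myeloid cell development. GAGGAA and TGANTCA were searched on both strands, and the NF-κB consensus along the gene's strand only. GAGGAA was present in 5 of the 6 windows and in 27.6% of all 33469 promoter windows, and the exception was Tlr2. On the gene's strand, the NF-κB consensus was present in the window of Tlr2 and in 5.24% of all windows. Its reverse complement was not searched. The AP-1 site was present in the window of Cd68, with 2 matches, and in 7.33% of all windows. The motifs were chosen with these sequences in view, and a match is a run of letters, not a measured binding site. The windows of the 3 genes with the highest fitted rises and of Tlr2, the gene without a GAGGAA, are printed 5′ to 3′ along the gene's strand with motif matches in capitals. They lie at chr7:54797962-54798261 (minus strand, Lyz2), chr18:28611109-28611408 (minus strand, Cd14), chr1:192089342-192089641 (plus strand, Itgam) and chr2:171504508-171504807 (minus strand, Tlr2).
Lyz2: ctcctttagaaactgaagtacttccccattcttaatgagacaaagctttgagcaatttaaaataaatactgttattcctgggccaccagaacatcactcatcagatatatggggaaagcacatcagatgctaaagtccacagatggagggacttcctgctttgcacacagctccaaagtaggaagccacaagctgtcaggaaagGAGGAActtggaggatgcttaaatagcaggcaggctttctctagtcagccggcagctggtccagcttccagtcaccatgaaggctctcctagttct
Cd14: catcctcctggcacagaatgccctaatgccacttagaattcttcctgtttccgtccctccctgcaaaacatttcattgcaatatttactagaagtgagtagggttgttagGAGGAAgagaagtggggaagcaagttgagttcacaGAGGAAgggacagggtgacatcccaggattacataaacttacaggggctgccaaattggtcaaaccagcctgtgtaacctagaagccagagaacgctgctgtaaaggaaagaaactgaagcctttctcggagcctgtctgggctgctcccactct
Itgam: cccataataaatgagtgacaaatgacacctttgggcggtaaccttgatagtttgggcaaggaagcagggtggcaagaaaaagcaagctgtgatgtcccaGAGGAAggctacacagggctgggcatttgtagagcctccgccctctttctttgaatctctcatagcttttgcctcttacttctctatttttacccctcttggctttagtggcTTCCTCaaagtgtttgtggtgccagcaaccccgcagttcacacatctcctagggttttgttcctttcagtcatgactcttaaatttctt
Tlr2: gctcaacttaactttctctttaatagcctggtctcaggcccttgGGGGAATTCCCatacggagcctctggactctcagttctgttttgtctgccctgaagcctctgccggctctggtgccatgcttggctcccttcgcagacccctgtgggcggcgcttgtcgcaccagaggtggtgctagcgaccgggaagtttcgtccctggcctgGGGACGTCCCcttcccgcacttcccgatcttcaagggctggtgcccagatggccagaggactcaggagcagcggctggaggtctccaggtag
In the window of Lyz2 the capitals mark a single GAGGAA that begins 46 bases before the start. In that of Cd14 they mark 2, at 140 and 105 bases before the start. In that of Itgam they mark GAGGAA and, nearer the start, its reverse complement TTCCTC. The capitals in the window of Tlr2 mark NF-κB matches in 2 stretches, and the stretch farther from the start holds 2 matches that overlap.

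Lyz2, the lysozyme gene, had the highest fitted rise of the 6 genes. Its brighter probe read 6.67, 6.23, 6.40 and 6.51 in control samples 1 to 4, and 10.32, 10.02, 10.14 and 10.48 in wounded samples 1 to 4 (log2 signal). Every wounded sample was far above every control, and within each group the values lay close together. The means were 6.45 ± 0.19 (SD, n = 4) and 10.24 ± 0.21 (SD, n = 4). The rise was 3.79 ± 0.19 log2 units (SE), 13.8-fold (limma adjusted p = 7.59e-11). A larger fitted rise was seen for 24 of all features. With local background subtracted in place of the offset, the same arrays gave 5.27 ± 0.28 (SE), or 38.7-fold, since the background-subtracted intensities were 14 to 55 in controls and 1054 to 1463 in wounded samples.

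The other Lyz2 probe rose as well but split the wounded samples. It read 6.57, 6.63, 6.77 and 6.54 in controls 1 to 4 and 10.44, 10.44, 8.90 and 8.70 in wounded samples 1 to 4. Wounded samples 1 and 2 were thus at the level of a large rise on both probes, while wounded samples 3 and 4 rose by only 2.27 and 2.07 log2 units on this probe, against 3.68 and 4.03 on the brighter one. Its rise was 2.99 ± 0.33 log2 units (SE), 7.96-fold (limma adjusted p over single probes = 2.89e-06), and 4.11 ± 0.40 log2 units with local background subtracted. The probe that stood for Lyz2 was picked by mean signal over all 8 arrays, wounded ones included. In controls alone the other probe was the brighter, at a mean of 6.63 against 6.45. The choice of probe thus decides between 13.8-fold and 7.96-fold. In RefSeq, a pair of neighbouring genes carry the name Lyz2, Lyz2 itself and Lyc2 as a synonym, with 0 genes between them. The probe sequences were not used here, so whether either probe also reads Lyc2 was not tested.

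Cd14, the lipopolysaccharide co-receptor, rose by a like amount on both of its probes. The brighter probe read 7.36, 7.63, 7.50 and 7.54 in controls and 11.01, 9.90, 10.16 and 9.79 in wounded samples. The groups were well apart, and wounded sample 1 stood highest. Means were 7.51 ± 0.11 (SD, n = 4) and 10.22 ± 0.55 (SD, n = 4), so the rise was 2.71 ± 0.24 log2 units (SE), 6.55-fold (limma adjusted p = 2.16e-07). The other probe averaged 7.19 ± 0.13 (SD, n = 4) in controls and read 10.26, 9.86, 9.97 and 9.35 in wounded samples. It gave 2.67 ± 0.21 log2 units (SE), 6.38-fold (limma adjusted p over single probes = 6.01e-08). Both probes were found on all 8 arrays, so Cd14 had a measured level in unwounded skin as well as in wounds.

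Itgam, the integrin chain of neutrophils and monocytes, was dim in unwounded skin and clearly measured in wounds. The scanner found its brighter probe on 3 control arrays and all 4 wounded arrays. It read 6.28, 6.07, 6.06 and 6.27 in controls and 8.83, 8.19, 7.88 and 8.35 in wounded samples. The groups did not overlap, and wounded sample 1 was again the highest. The log2 fold change was 2.14 ± 0.19 (SE), or 4.41-fold (limma adjusted p = 2.16e-07). The other probe, found on 1 control array, ranged from 5.88 to 6.27 in controls and from 7.84 to 8.37 in wounded samples. Its log2 fold change was 2.01 ± 0.17 (SE), with a limma adjusted p over single probes of 8.25e-08. The 4 wounded arrays alone met the filter for this probe. Over all 38948 probes, with no filter, its limma adjusted p was 2.79e-09. With local background subtracted, the brighter probe gave 4.15 ± 0.33 (SE), or 17.8-fold, on intensities of 9 to 25 in controls and 164 to 459 in wounded samples. The other probe then gave 5.05 ± 0.54 (SE), or 33.2-fold, on intensities of 2 to 25 and 168 to 315. How alike the 2 probes were thus depended on the offset.

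Tlr2, the lipoprotein receptor, rose about as much as Itgam on its brighter probe. That probe read 6.31, 6.37, 6.40 and 6.36 in controls and 9.03, 8.21, 8.20 and 8.04 in wounded samples. The controls lay within 0.094 log2 units of each other, and wounded sample 1 stood above the other wounded samples. The log2 fold change was 2.01 ± 0.20 (SE), or 4.03-fold (limma adjusted p = 8.23e-07), and 3.42 ± 0.28 (SE), or 10.7-fold, with local background subtracted. The other probe had 0 controls in which its spot was found, against 4 wounded arrays, so its change is a bound. It read 7.46, 6.84, 7.39 and 6.36 in wounded samples against 5.95 to 6.08 in controls. The bound, taken from the group means, was 1.98-fold. It is an estimate with sampling error of its own, and without wounded sample 1 it was 1.79-fold. The probe had passed the filter through the wounded arrays alone, so a test within the filtered probes is given no weight. Over all 38948 probes, with no filter, its limma adjusted p was 0.000331. Here wounded sample 4 was barely above the controls. The mean of both probes gave a log2 fold change of 1.50, still called higher.

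Tlr4, the lipopolysaccharide receptor that works with CD14, was close to background in both groups. The scanner found its brighter probe on 2 control arrays and all 4 wounded arrays. It read 6.10, 6.39, 6.17 and 6.29 in controls and 6.68, 6.50, 6.57 and 6.52 in wounded samples. The groups did not overlap, but the lowest wounded value exceeded the highest control by only 0.11 log2 units. The log2 fold change was 0.33 ± 0.10 (SE), or 1.26-fold (limma adjusted p = 0.0232), and 1859 of all features, 14.6%, had a larger fitted rise. The control arrays alone would not have met the filter for this probe. With no filter on dim probes its limma adjusted p was 0.0464. With local background subtracted the fitted rise was 1.07 ± 0.33 (SE), or 2.10-fold (adjusted p = 0.0358), on intensities of 13 to 26 in controls and 31 to 53 in wounded samples. The call was lost without control 1 (adjusted p = 0.0737), without control 3 (0.0797), without wounded 1 (0.0642), within the 6 arrays of a common run of array numbers (0.0812), without a variance trend (0.0822) and with the authors' values (0.0517). The other probe was found on 2 wounded arrays and 0 control arrays, was not tested and overlapped between the groups, at 5.84 to 6.03 in controls and 5.93 to 6.34 in wounded samples.

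Cd68, the macrophage lysosomal marker, rose with the widest spread between wounded samples of the 6 brightest probes. Its single probe was found on all 8 arrays and read 6.70, 7.11, 7.18 and 6.57 in controls. It read 9.16, 8.38, 8.30 and 7.11 in wounded samples 1 to 4. Wounded sample 4 lay within the control range, and the other 3 wounded samples lay above it. Means were 6.89 ± 0.30 (SD, n = 4) and 8.24 ± 0.85 (SD, n = 4), so the rise was 1.35 ± 0.30 log2 units (SE), 2.55-fold (limma adjusted p = 0.00412). With local background subtracted it was 1.97 ± 0.45 log2 units (SE), or 3.91-fold, and with the authors' values 2.03, or 4.08-fold. Without wounded sample 4 the log2 fold change was 1.72, and without wounded sample 1 it was 1.04, and both kept the call.

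**Figure D2:**
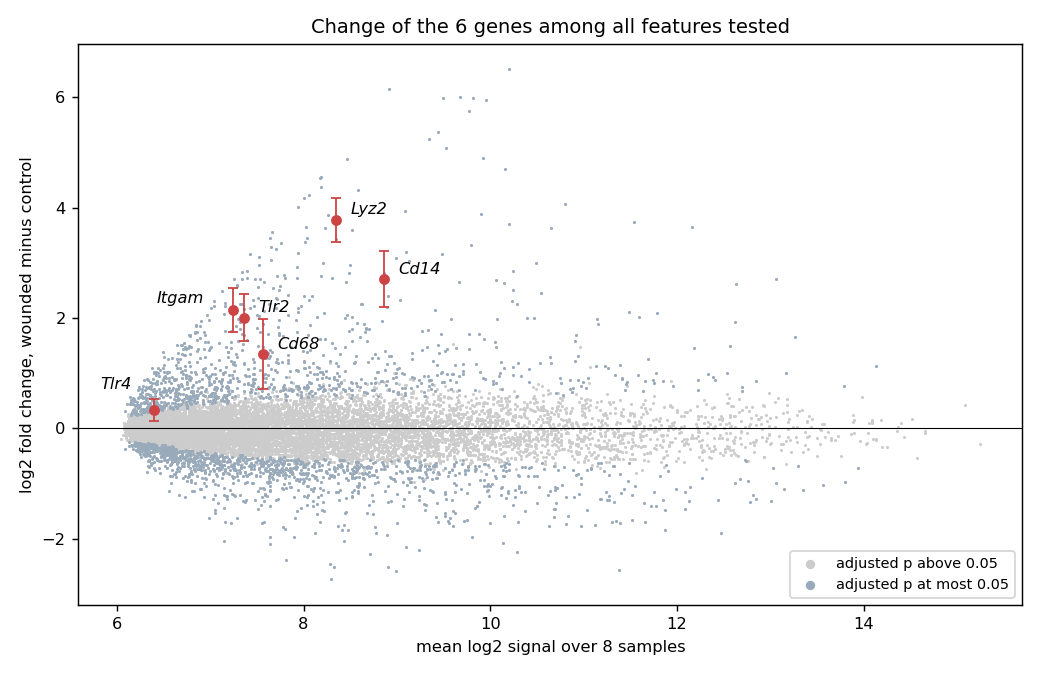
Log2 fold change, wounded minus control, against mean log2 signal over 8 samples for all 12769 features, with the 6 genes in red and their 95% limma intervals. Lyz2 at 3.79 and Cd14 at 2.71 lie above most features of like signal, and Tlr4 at 0.33 lies at the dim end close to the bulk of features.

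The wounded samples differed from each other in a way that most of the genes shared. Wounded sample 1 had the highest value of the 4 on 5 of the 6 brightest probes and on 9 of all 11 probes. Wounded sample 4 had the lowest value on 3 of the 6 brightest probes and on 7 of the 11 probes, yet the highest on the brighter Lyz2 probe. Wounded sample 2 was lowest on 2 of the 6 brightest probes. The median rise over the 6 genes was 2.66 log2 units in wounded sample 1, 1.94 in sample 2, 1.77 in sample 3 and 1.93 in sample 4. Among 1022 features called higher that had a value in every sample, wounded sample 1 was highest in 36.7% and wounded sample 4 in 34.9%. In the same features wounded sample 4 was lowest in 20.5% and wounded sample 2 in 38.3%. The median rise over those features was 0.97 log2 units in wounded sample 1 and 0.98 in sample 4. Wounded sample 1 carried 55 of the bad spots, none of them a member's, and wounded sample 4 was the wounded array outside the common run of array numbers. The part of these in the order of the samples was not tested.

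**Figure D3:**
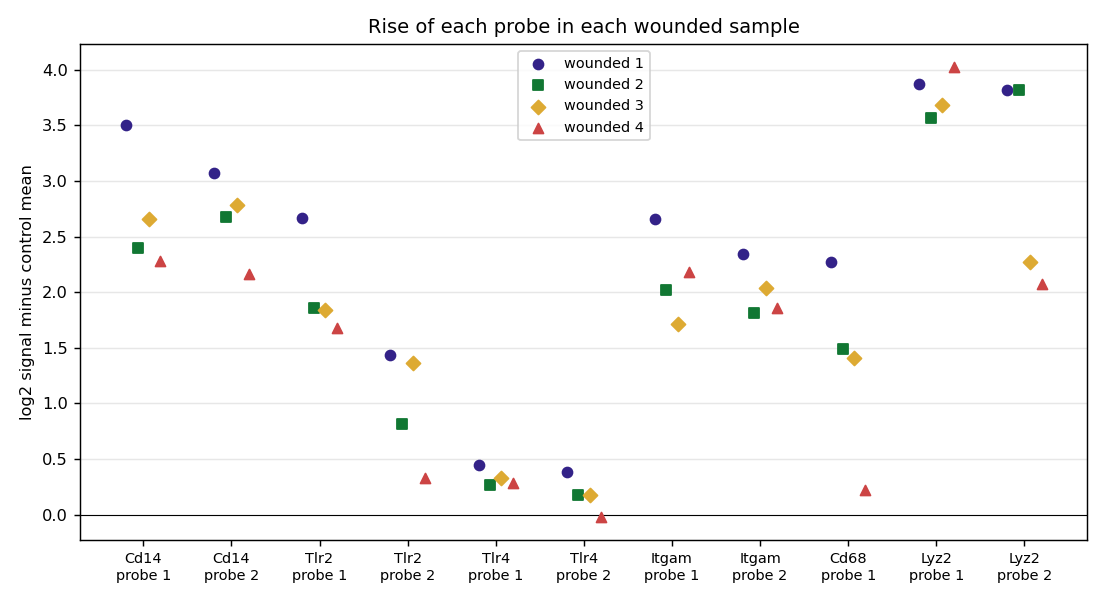
Log2 signal of each of the 11 probes in each of the 4 wounded samples, minus the mean of the control samples for that probe. Wounded sample 1 is highest on 9 probes, wounded sample 4 is near 0 for Cd68 at 0.23, and samples 3 and 4 fall below samples 1 and 2 on the second Lyz2 probe.

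Whether the genes rose by different amounts was tested on the within-array difference of their log2 signals, which does not depend on the scaling of an array by a constant. All 15 pairs of genes were compared with a 2-sided exact permutation test, for which 0.0286 is the smallest p that 4 against 4 samples allow. After Benjamini-Hochberg adjustment 11 of the 15 pairs passed, each with that smallest p and an adjusted p of 0.039. Of these, 6 also passed with the same sign under all 8 alternatives of background, normalization, probe choice and source of values that were tested on the pairs. Tlr4 rose less than Lyz2 by 3.46 ± 0.18 log2 units (SE, n = 4 per group), less than Cd14 by 2.38 ± 0.24, less than Itgam by 1.81 ± 0.20 and less than Tlr2 by 1.68 ± 0.20. The Tlr4 probe was close to background, and these sizes moved with the processing while their signs did not. With local background subtracted Tlr4 minus Lyz2 was -4.20, Tlr4 minus Itgam -3.08, Cd14 minus Tlr4 2.11 and Tlr2 minus Tlr4 2.35. Lyz2 rose more than Cd68 by 2.44 ± 0.53 and more than Tlr2 by 1.78 ± 0.26. The other 5 pairs lost the call under at least 1 of these alternatives. Among them, Lyz2 rose more than Cd14 by 1.08 ± 0.32 and more than Itgam by 1.65 ± 0.18. Both missed the threshold with the mean pixel of each spot (adjusted exact permutation p = 0.122 and 0.107). In that setting Lyz2 was read from its other probe (log2 fold change 3.38), so the change of pixel measure and of probe cannot be told apart. Cd14 rose more than Cd68 by 1.36 ± 0.28, which missed it with local background subtracted (0.0659). Tlr2 rose more than Cd68 by 0.66 ± 0.30, a difference of 0.15 with the mean of an ID's probes (0.6).

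The order among Cd14, Itgam and Tlr2 turned with the treatment of the background. With the offset of 50, Cd14 rose more than Tlr2 by 0.70 ± 0.09 log2 units (adjusted exact permutation p = 0.039). With local background subtracted that difference, Cd14 minus Tlr2, was -0.24, with an adjusted exact permutation p of 0.0659. Cd14 minus Itgam was 0.57 ± 0.22 with the offset of 50 (adjusted exact permutation p = 0.107) and -0.97 with local background subtracted (0.0659). It passed the threshold with median scaling (0.66, adjusted exact permutation p = 0.0357) and with cyclic loess (0.59, 0.0357). The difference between Tlr2 and Itgam was -0.13 ± 0.16 (adjusted exact permutation p = 0.457), within the spread between samples. With the mean of an ID's probes it was -0.58 and passed the threshold (0.039). Tlr4 minus Cd68 was -1.02 ± 0.42 and Itgam minus Cd68 0.79 ± 0.44, each with an adjusted exact permutation p of 0.122. Tlr4 minus Cd68 missed the threshold under all 8 alternatives as well, at -1.10 to -0.90. Itgam minus Cd68 passed the threshold under 4 of the 8 alternatives, with an offset of 10 (adjusted exact permutation p = 0.039), local background subtracted (2.18, 0.0429), the mean pixel (1.01, 0.0476) and the authors' values (2.05, 0.0429).

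**Figure D4:**
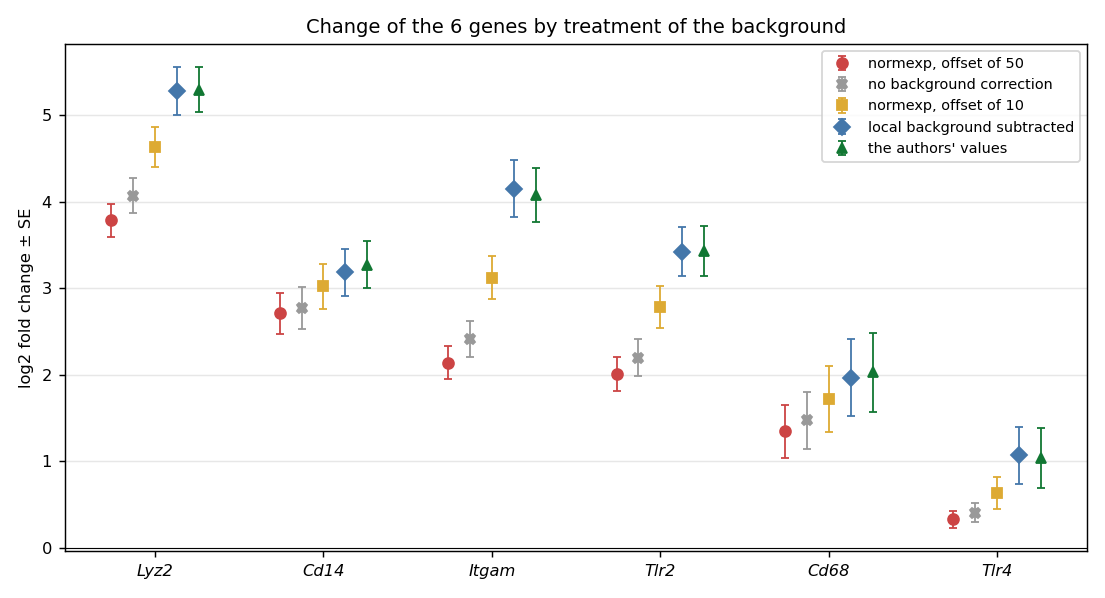
Log2 fold change ± SE of the 6 genes under 5 treatments of the background, from normexp with an offset of 50 to the authors' deposited log2 values. Lyz2 is highest and Tlr4 lowest under each, while Itgam goes from 2.14 to 4.15 and passes Cd14, which goes from 2.71 to 3.18, when local background is subtracted.

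The pattern of the 6 genes over the 8 samples was followed by other features of the array. Among 11338 features with an Ensembl ID outside the 6, the 2 with the highest Pearson r to the mean of the 6 centred signals were ENSRNOG00000008759 (r = 0.999) and ENSRNOG00000006940 (r = 0.997). The r is over 8 samples in 2 groups, so it mostly reflects the difference between groups, and 231 features reached at least 0.95. ENSRNOG00000008759 went from 5.99 ± 0.027 (SD, n = 4) to 8.58 ± 0.46 (SD, n = 4), a log2 fold change of 2.59 ± 0.20 (SE) with a limma adjusted p of 3.50e-08. Its control mean was like that of the second Tlr2 probe (6.02), which was found on 0 control arrays. On how many arrays ENSRNOG00000008759 was found is not given here, so its change may be a bound. ENSRNOG00000006940 went from 6.89 ± 0.16 (SD, n = 4) to 9.22 ± 0.42 (SD, n = 4), a log2 fold change of 2.33 ± 0.21 (SE) with a limma adjusted p of 3.08e-07. Neither ID has a symbol in the sources used here. Lists of Toll-like receptor partners, other integrins and markers of neutrophils and other cell types were not matched to the array for the same reason, so which cells the rise of Itgam, Cd14 and Lyz2 came from was not tested.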

How the data were processed

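Total RNA of skin was amplified to biotinylated cRNA and hybridised to Rat MI-Ready oligonucleotide arrays, per the labels' protocols. Spots were read at 635 nm with GenePix Pro 4.1.1.4 without normalization, and the deposited intensity values are linear pixel intensities of spot and local background, per the file headers. The authors also deposited log2 values. Within 0.011, log2 of the background-subtracted median pixel, shifted by 1 constant per array, matched these for 99.9% to 100% of the probes compared. Compared were probes with a single spot, an authors' value on every array and a background-subtracted intensity above 1. The authors' values are thus log2 signals shifted array by array but not centred by probe. They do not include the second Tlr2 and second Tlr4 probes. Their column medians were 6.98 to 7.06.

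Of 40320 spots per array, 1240 blanks, markers and controls were left out after background correction. Median pixels were corrected by normexp (offset 50) and quantile normalized, and spots of a probe were averaged. Probes found on at least 4 of 8 arrays were kept (19444). The brightest by mean signal over all 8 arrays stood for an Ensembl ID, giving 12769 features. A probe found on no array of a group gives a bound, set against the higher of its own signal and the lowest found signal on each array. Wounded and control samples were compared with limma 3.58.1 in R 4.3.3 (2-sided, variance trend), adjusted over all features or probes. The method was tested on simulated data. All probes of the 6 IDs are reported, and the 2 features most alike. The 4 gene lists and 11 cell type lists by symbol could not be matched: 0 of 47357 reference rows (GRCr8) hold an Ensembl ID, and 0 of 46714 array IDs occur in the table. The members, lists and promoter motifs were chosen with earlier results of these data known.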

Additional observations from a re-analysis of the deposited data

How the results depend on the processing

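The fitted rise of all 6 genes kept its direction under each of up to 23 alternatives that tested it. Cd14, Tlr2, Itgam, Cd68 and Lyz2 also kept the call under each, with a largest limma adjusted p of 0.025 (Cd68, no variance trend). Tlr4 kept the call in 16 of 22. It lost it with the authors' values (log2 fold change 1.04), without a variance trend (0.33), within the 6 arrays of the common run (0.30) and in 3 of the 8 fits that left out a sample, which gave 0.28 to 0.38. Leaving out a sample gave log2 fold changes of 2.45 to 2.85 for Cd14, 1.79 to 2.12 for Tlr2, 1.97 to 2.28 for Itgam, 1.04 to 1.72 for Cd68 and 3.71 to 3.86 for Lyz2. Only probes found on all 8 arrays left 4 of the 6 genes and 625 features higher, against 1023, and Lyz2 was then read from its other probe (2.99). Median scaling gave 761 features lower, against 1232 with quantile normalization. The stricter filter tests fewer features; otherwise the cause was not tested.

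Among differences between genes, Cd14 minus Tlr2 turned to -0.24 with background subtracted and -0.16 with the authors' values. Cd14 minus Itgam turned to -0.10 with an offset of 10, -0.97 with background subtracted and -0.81 with the authors' values. The use of the mean of an ID's probes for the pairs was chosen after seeing the data, and 11 pairs passed with it. With a sample left out, the permutation test used here, which doubles the smaller tail, gives no exact p under 0.0571 with 3 against 4 samples, so the pairs were then given as values only, and 0 of the called differences changed sign. Counts of the 6 genes past 2-fold and 4-fold were run under the alternatives after seeing the data. Leaving out a sample gave 5 at least 2-fold higher and 2 to 4 at least 4-fold higher, and the other alternatives gave 4 to 6 and 3 to 5. In a fit with the labels' numbers as replicate block, Tlr4 kept a log2 fold change of 0.33 (adjusted p = 0.0453) and all 6 genes stayed called. The deviations of same-numbered samples from their group means correlated at -0.28 to -0.0091, so no pairing was seen. Dixon's test set apart 0 of 24 groups of 4 values, where chance sets apart about 1 in 20. With 4 values it flags only an extreme value, so this count does not show that no sample stood out. The low signal over background of Tlr4, Itgam and Tlr2 in controls limits how well their fold changes are known, and the number of arrays limits all.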
